A study of Mus musculus with 10 samples.

Results

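Cholesterol and fatty acid genes were compared between adult mouse retina and newborn mouse cortex through 44 genes, each represented by 1 probe of an Applied Biosystems 1-colour array. The set was proposed as 56 genes of sterol and fatty acid synthesis, storage and oxidation. Those with a probe that the platform annotation gives this single symbol were kept, and for each gene the probe with the highest mean log2 value over the 10 arrays was used. The 44 genes are part of 13840 genes named on the array, and the other 12 (Acat2, Mvk, Fdps, Lss, Nsdhl, Srebf2, Lcat, Soat1, Acaca, Acacb, Acsl1 and Acadm) were not analysed here. The retina RNA was 1 pool from 350 adult C57/B6 mice, hybridised to 5 arrays. The titles of these arrays also carry the code P1, whose meaning the sources used here do not give, so the age of adult rests on the descriptions and the design text. The cortex RNA was 1 pool from 19 mice at postnatal day 1, also hybridised to 5 arrays, and was the common comparison sample of a study of array platforms. On the strain of the cortex mice the sample labels (C57/B6) and the design text of the series (Swiss-Webster) disagree. No treatment, transgene or mutation is named for either pool. Since the 5 arrays of a tissue repeat 1 pool, every p-value below measures the spread between arrays and not between animals. Tissue, age and possibly strain cannot be told apart in this design.

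Cholesterol is built from acetyl-CoA through mevalonate, isoprenoid units, squalene and a series of sterol intermediates. SREBP transcription factors, held back in the endoplasmic reticulum by INSIG proteins and carried forward by SCAP, switch on these enzymes and those of fatty acid synthesis when sterols are scarce. The brain makes its own cholesterol because the blood-brain barrier keeps lipoproteins out. The outer segments of photoreceptors are membranes rich in docosahexaenoic acid, a long polyunsaturated fatty acid made by alternating elongation (ELOVL enzymes) and desaturation (FADS enzymes). Acyl-CoA synthetases (ACSL) activate fatty acids, and the carnitine shuttle (CPT enzymes) brings them into mitochondria for beta-oxidation.

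All levels are log2 intensities after quantile normalization, and each difference is the retina mean less the cortex mean on that log2 scale. Calls required an adjusted p from limma under 0.05 together with a 2-fold difference or more. Array medians before normalization were 835.5 to 986.7 intensity units in retina and 1255 to 1341 in cortex, and without scaling the median difference of all probes was -0.41. Probes for olfactory receptors, which neither tissue is known for, served as a yardstick of dim signal: 95% of their tissue means lay under 10.74. The labelled tissues carried their markers. Summed over 5 rod genes, the arrays read 22.23 to 22.40 in retina, against 11.61 to 12.27 in cortex, and summed over 4 cortical neuron genes 12.81 to 13.39 in retina, against 19.03 to 19.10 in cortex. Other marker lists differed as well. Sums over 4 Müller glia and astrocyte genes read 20.58 to 20.70 in retina, against 18.21 to 18.33 in cortex. Most of that sum was Glul in both tissues (mean 20.27 in retina, against 17.82 in cortex). Rlbp1 was higher in retina as well (3.15), but Aldh1l1 was called lower (-1.75) and Slc1a3 was lower short of 2-fold (-0.84). Sums over 4 radial glia genes read 18.24 to 18.43 in retina, against 19.82 to 19.93 in cortex. Most of that cortex sum was Fabp7, called lower in retina (-6.80), while most of the retina sum was Vim, higher there short of 2-fold (0.32). Hes5 was called lower (-1.27) and Sox2 was lower short of 2-fold (-0.87). Sums over 6 fibroblast and meninges genes read 13.52 to 13.79 in retina, against 16.98 to 17.06 in cortex. Over 6 oligodendrocyte and myelin genes the sums read 12.64 to 12.85 in retina, against 13.75 to 13.92 in cortex, with Mag, Mog and Cnp under the yardstick in both tissues. Over 6 pigment epithelium genes the sums read 18.64 to 18.77 in retina, against 19.64 to 19.86 in cortex. Most of that cortex sum was Ttr, a choroid plexus gene too (mean 18.34 in retina, against 19.73 in cortex), while the mean of Rpe65 was 14.58 in retina, against 7.77 in cortex. Over 6 pituitary genes the sums read 12.13 to 12.61 in retina, against 15.63 to 15.81 in cortex. Of these, Gh (mean 7.21 in retina, against 15.36 in cortex), Cga (7.82 in retina, against 11.89 in cortex) and Pomc (9.61 in retina, against 11.97 in cortex) were under the yardstick in retina and above it in cortex. Sums over 5 endothelial genes read 16.42 to 16.65 in retina, against 16.32 to 16.40 in cortex, but single genes went both ways. Kdr (2.17), most of the retina sum, and Slco1a4 (2.38) were higher in retina. Cldn5 (-2.03), most of the cortex sum, Cdh5 (-1.39, dim in both tissues) and Pecam1 (-0.94, short of 2-fold) were lower. Sums over 3 microglia and macrophage genes read 14.56 to 14.69 in retina, against 14.86 to 15.08 in cortex. The part of these cell types in the results below was not tested, and fewer cells of a type cannot be told apart from less RNA per cell.

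Called lower in retina were 6 of 13 genes of cholesterol synthesis, all 3 FADS desaturase genes, Fasn, Cyp46a1 and the ligase genes Acsl4 and Acsl5. Called higher were Ebp, also of cholesterol synthesis, the sterol-sensing genes Srebf1 and Insig2, the elongase gene Elovl4, the ligase genes Acsl3 and Acsl6 and 3 of 6 genes of the carnitine shuttle and beta-oxidation. In all, 9 of the 44 were called higher and 13 lower in retina, and 22 were not called. Without scaling of the arrays, where the median difference of all probes was -0.41, the split was 7 higher and 20 lower. The shares that follow are from the quantile-normalized fit. Over all named genes, 1 probe each, 14.2% were called higher and 14.7% lower, 29% together. The 44 probes were bright, with a median mean level at percentile 89 of all probes, so the 8788 named genes above the median brightness are the closer yardstick: of these 18.1% were called higher and 17.8% lower, 36% together. On all 33012 probes the share called was 25.4%. The differences ran from -2.13 to 3.05 with a median of -0.39, beside a median of 0.00 over all named genes and -0.01 over all probes. In 38 of the 44 genes the 5 values of one tissue all lay on one side of the 5 of the other, against 50.3% of all named genes, 72.1% of the brighter ones and 40.5% of all probes. Of the 22 genes not called, 17 had an adjusted p under 0.05 with a difference under 2-fold, and 5 missed the p threshold (Pmvk, Npc1, Elovl1, Elovl3 and Cpt1c).

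**Figure D1:**
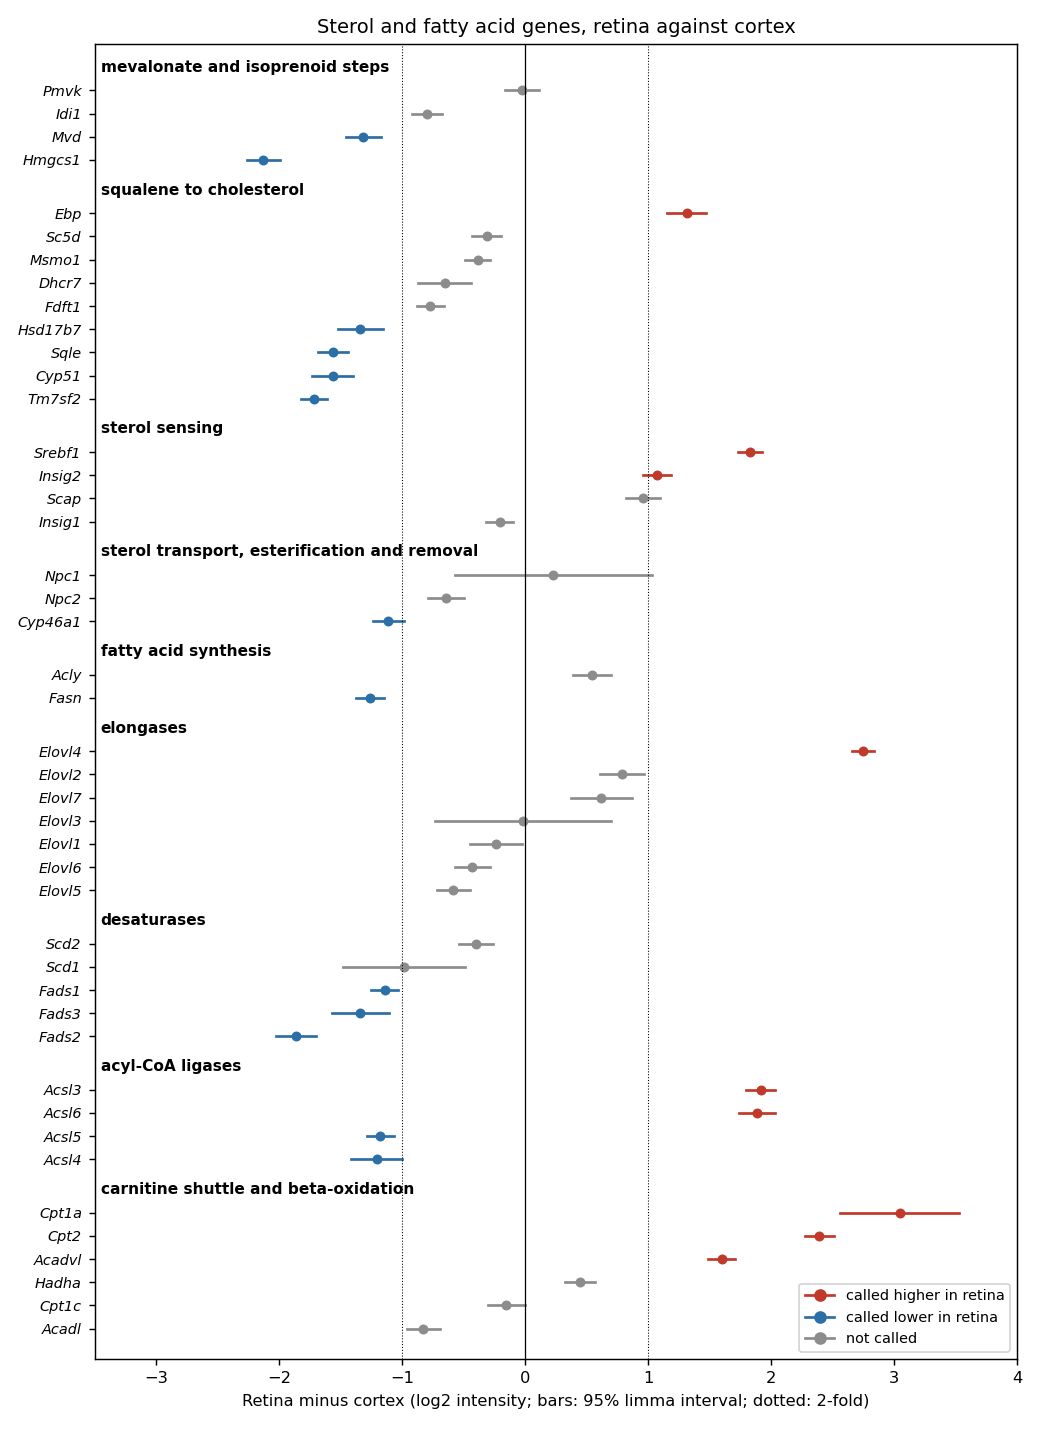
Retina minus cortex difference of each of the 44 genes on the log2 scale, grouped by role, with the 95% interval of the limma fit and dotted lines at 2-fold. Genes of cholesterol synthesis lie mostly to the left of 0, with Hmgcs1 at -2.13 and Ebp the exception at 1.31, and Cpt1a, Elovl4 and Cpt2 lie farthest to the right. The place of Cpt1a rests on dim cortex signal, and with an offset before the log its difference was 1.63, below the 2.71 of Elovl4 and the 2.24 of Cpt2.

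Among the 13 measured genes of cholesterol synthesis, 6 were called lower in retina and 1 was called higher, leaving 6 without a call, and the median difference was -0.80. The shares among the named genes above the median brightness were 17.8% called lower and 18.1% higher. All of the 13 but Ebp had a lower mean in retina, although the sign of Pmvk turned when the arrays were centred on their medians (0.11). The first steps hold 4 of these genes. Hmgcs1 (probe 909892), which encodes the cytosolic synthase that makes HMG-CoA, had 17.30, 17.24, 17.16, 17.13 and 17.19 on retina arrays 1 to 5, against 19.31, 19.43, 19.48, 19.16 and 19.28 on cortex arrays 1 to 5. No retina array came near the lowest cortex array. The difference was -2.13 (SE 0.063, limma with Benjamini-Hochberg adjusted p = 2.1e-14), 4.37-fold lower in retina. Mvd (probe 559603), the decarboxylase that yields isopentenyl diphosphate, was at 13.82, 13.70, 13.68, 13.67 and 13.48 on the retina arrays and at 15.05, 15.08, 15.03, 14.84 and 14.92 on the cortex arrays, again without overlap (-1.31, SE 0.067, adjusted p = 2.44e-11). Pmvk, the phosphomevalonate kinase one step earlier, averaged 15.71 ± 0.13 in retina and 15.74 ± 0.09 in cortex (SD, n = 5 each), with a difference of -0.03 and an interval from -0.16 to 0.11 that stays well inside 2-fold. Idi1, which isomerises the isoprenoid unit, had 2 probes, with differences of -0.80 and -0.95. Both lay short of 2-fold, with no overlap between the tissues on either.

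The Hmgcs1 promoter is shown because this gene had the largest deficit in retina. It is also shown because its window alone, among the 37 genes with one, held the core of a sterol regulatory element. SREBP binds this short sequence. The window runs from 250 bases before to 50 bases after the annotated start (RefSeq, GRCm38.p6, chr13:119690101-119690400, + strand). Capitals mark TCACCCCAC, a match to TCACNCCAC that begins 137 bases before the start, and 4 matches to CCAAT, the letters bound by NF-Y, all on the other strand and so written ATTGG. Below it stands Hsd17b7 (chr1:169969156-169969455, - strand), a further gene lower in retina, with 3 such matches and none to the sterol element. The Hsd17b7 window also has a CACGTG, a motif described below and left in lower case, that begins 143 bases before the start.
Hmgcs1: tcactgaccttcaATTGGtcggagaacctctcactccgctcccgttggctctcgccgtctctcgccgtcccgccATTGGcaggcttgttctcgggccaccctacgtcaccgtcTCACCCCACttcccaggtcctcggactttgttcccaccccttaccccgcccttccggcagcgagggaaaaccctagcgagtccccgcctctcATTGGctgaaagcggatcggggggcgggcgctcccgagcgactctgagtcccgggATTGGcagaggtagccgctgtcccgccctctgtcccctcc
Hsd17b7: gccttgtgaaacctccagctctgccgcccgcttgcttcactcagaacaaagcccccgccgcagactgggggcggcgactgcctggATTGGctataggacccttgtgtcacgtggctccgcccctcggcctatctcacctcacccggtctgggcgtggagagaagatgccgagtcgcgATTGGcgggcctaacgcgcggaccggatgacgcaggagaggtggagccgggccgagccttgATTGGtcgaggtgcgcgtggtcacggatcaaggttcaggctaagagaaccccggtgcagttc

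Windows were found for 37 of the 44 genes by Entrez ID and searched on both strands, where a gene with several starts counted once if any window matched. Sqle, Fdft1, Fads1, Scd1, Scd2, Npc1 and Elovl3 had no window, so their promoters were not searched. TCACNCCAC was in 1 of the 37, and in 1.24% of all 32851 windows and 1.47% of the 11163 array genes with a window. CCAAT was in 27 of the 37, and in 37.4% of all windows and 42.5% of the array genes. By call it was in 7 of 9 genes higher in retina, 9 of 11 lower and 11 of 17 not called. The E-box CACGTG, another set of letters that SREBP can bind, was in 7 of the 37 (Dhcr7, Elovl4, Elovl5, Hsd17b7, Insig1, Sc5d and Scap), and in 7.15% of all windows and 9.94% of the array genes. Matches to different motifs overlapped 0 times in these windows. A match is a description of letters and shows no binding.

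The later steps, which run through squalene and the sterol ring, hold 9 measured genes, and in 8 of them every retina array was below every cortex array. Among the named genes above the median brightness, 72.1% had no overlap, counting both directions. Tm7sf2 (probe 730299), a sterol reductase, had 13.96, 14.02, 14.00, 14.01 and 14.01 on the retina arrays, against 15.64, 15.76, 15.78, 15.59 and 15.79 on the cortex arrays (-1.72, SE 0.049, limma adjusted p = 1.35e-14). The difference far exceeded the spread of either tissue. Cyp51 (probe 634387), the lanosterol demethylase, had 13.44, 13.15, 13.22, 13.50 and 13.48 in retina and 14.95, 14.97, 14.80, 15.09 and 14.80 in cortex (-1.57, SE 0.078, adjusted p = 2.04e-11). Sqle (probe 529335), squalene epoxidase, the first oxygen-requiring step and a control point of the pathway, had 16.17, 16.19, 15.90, 16.08 and 16.18 in retina and 17.74, 17.65, 17.70, 17.60 and 17.63 in cortex (-1.56, SE 0.057, adjusted p = 3.51e-13). In linear terms Tm7sf2, Cyp51 and Sqle were 3.28-fold, 2.96-fold and 2.95-fold lower in retina. Hsd17b7, a reductase of sterol ketones, was called as well, averaging 12.79 ± 0.21 in retina, against 14.13 ± 0.06 in cortex (SD, n = 5 each; -1.34, SE 0.085).

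A further 4 genes of these steps had lower means in retina but were short of 2-fold. Fdft1, squalene synthase, which commits the pathway to sterols, differed by -0.77, Dhcr7, the reductase of the last step, by -0.65, Msmo1, a methylsterol oxidase, by -0.38, and Sc5d, a sterol desaturase, by -0.31. Ebp (probe 927721), the isomerase that moves the double bond of the sterol ring, went the other way, with 14.96, 15.00, 14.84, 14.67 and 14.63 in retina and 13.61, 13.55, 13.55, 13.43 and 13.39 in cortex. All its retina arrays lay above all cortex arrays (1.31, SE 0.074, limma adjusted p = 1.11e-10), 2.48-fold higher in retina. Without scaling of the arrays Ebp was at 0.93 and lost its call.

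Of 4 measured genes of sterol sensing, 2 were called higher in retina and none lower, leaving 2 without a call, and the median difference was 1.01. The shares among the named genes above the median brightness were 18.1% called higher and 17.8% lower. Srebf1 (probe 909582), which encodes SREBP1, the form tied most to fatty acid synthesis, had 16.68, 16.71, 16.66, 16.53 and 16.67 in retina and 14.78, 14.83, 14.86, 14.80 and 14.84 in cortex. The tissues were far apart (1.83, SE 0.045, limma adjusted p = 1.71e-15), 3.55-fold higher in retina. Insig2 (probe 603014), an anchor that retains SCAP and SREBP, had 14.10, 14.04, 14.01, 13.93 and 14.04 in retina and 12.98, 12.94, 12.94, 12.96 and 12.94 in cortex (1.07, SE 0.053, adjusted p = 1.9e-11). Its difference was just over 2-fold, was 0.69 without scaling and 0.98 with an offset before the log, and a dimmer probe of the gene gave 0.83, so the call rests on the threshold while the sign does not. Scap, the escort of SREBP, averaged 17.97 ± 0.12 in retina and 17.01 ± 0.10 in cortex (SD, n = 5 each), a difference of 0.96 just short of 2-fold, and with arrays centred on their medians it was called, at 1.03. Insig1, itself an SREBP target, differed by only -0.21 (interval -0.32 to -0.10).

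Of 3 measured genes of sterol transport and removal, 1 was called, beside 36% of the named genes above the median brightness. Cyp46a1 (probe 333900), the neuronal hydroxylase that turns cholesterol into a form able to leave the brain, had 14.28, 14.31, 14.48, 14.38 and 14.34 in retina and 15.31, 15.43, 15.48, 15.64 and 15.50 in cortex. It was lower on every retina array (-1.11, SE 0.06, limma adjusted p = 5.25e-11), though at -0.97 with arrays centred on their medians it missed 2-fold. Npc2, a lysosomal carrier of cholesterol, differed by -0.64. Npc1, its membrane partner, was under the olfactory receptor yardstick in both tissues, averaging 9.74 ± 0.20 in retina, against 9.51 ± 0.92 in cortex (SD, n = 5 each), so that nothing can be read from its value.

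**Figure D2:**
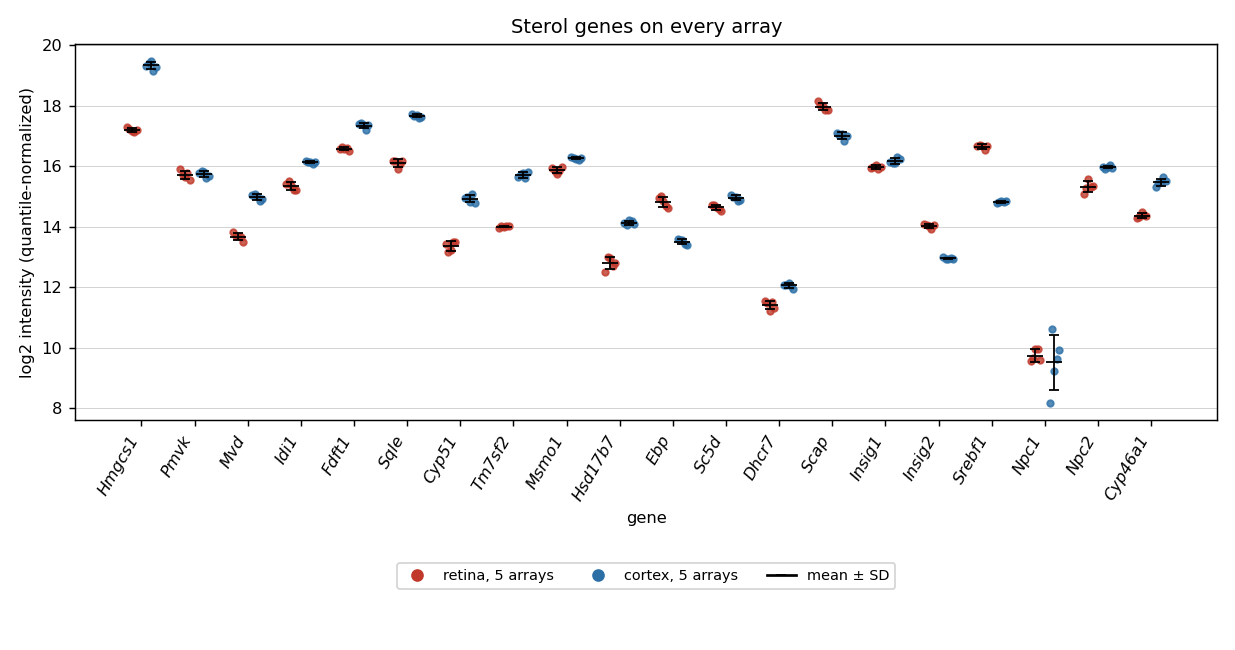
Quantile-normalized log2 intensity of the sterol genes on each of the 5 retina arrays (left of each pair) and 5 cortex arrays (right), with mean ± SD. Tissue values of Hmgcs1, Sqle, Cyp51, Tm7sf2 and Srebf1 are far apart, Pmvk overlaps, and Npc1 ranges from 8.15 to 10.63 over the cortex arrays. Heights of different genes are not comparable, since each has its own probe.

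Fasn (probe 596044), fatty acid synthase, which builds palmitate, had 16.44, 16.49, 16.33, 16.48 and 16.36 in retina and 17.79, 17.72, 17.72, 17.58 and 17.61 in cortex. All retina arrays were below all cortex arrays (-1.26, SE 0.053, limma adjusted p = 2.33e-12), 2.40-fold lower in retina. Acly, which supplies cytosolic acetyl-CoA for both sterols and fatty acids, averaged 14.25 ± 0.16 in retina and 13.70 ± 0.09 in cortex (SD, n = 5 each), a difference of 0.54 short of 2-fold. Among 7 elongases, 1 was called, beside 36% of the named genes above the median brightness. Elovl4 (probe 454688), which extends fatty acids to very long chains and whose human gene is mutated in a dominant macular dystrophy, had 17.58, 17.65, 17.54, 17.57 and 17.56 in retina and 14.88, 14.86, 14.85, 14.75 and 14.82 in cortex. The lowest retina array lay far above the highest cortex array (2.75, SE 0.043, adjusted p = 7.85e-18), 6.71-fold higher in retina. Elovl2, which acts on the polyunsaturated precursors of docosahexaenoic acid, differed by 0.79 and Elovl7 by 0.62, both with every retina array above every cortex array but short of 2-fold. Elovl5, another elongase of polyunsaturated chains, and Elovl6, which extends palmitate, differed by -0.58 and -0.43, with the tissues not overlapping. Elovl1 overlapped between tissues (-0.24, limma adjusted p = 0.0577), and Elovl3 was under the yardstick in both, at 7.50 in retina and 7.52 in cortex.

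The promoter windows of Fasn, lower in retina, and Elovl4, higher in retina, are shown as the members of this branch called in either direction (RefSeq, GRCm38.p6; Fasn chr11:120824498-120824797, - strand; Elovl4 chr9:83806256-83806555, - strand). Capitals mark CCAAT or its reverse. Fasn has matches that begin 90, 62 and 59 bases before the start, the last pair overlapping. Elovl4 has 1, which begins 25 bases after the start, and a CACGTG, left in lower case, that begins 5 bases after it.
Fasn: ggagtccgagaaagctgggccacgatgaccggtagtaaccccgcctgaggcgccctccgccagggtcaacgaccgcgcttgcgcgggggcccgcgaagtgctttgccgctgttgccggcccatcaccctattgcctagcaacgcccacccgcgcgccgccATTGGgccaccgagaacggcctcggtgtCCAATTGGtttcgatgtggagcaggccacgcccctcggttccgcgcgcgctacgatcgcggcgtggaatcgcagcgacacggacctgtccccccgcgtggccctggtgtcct
Elovl4: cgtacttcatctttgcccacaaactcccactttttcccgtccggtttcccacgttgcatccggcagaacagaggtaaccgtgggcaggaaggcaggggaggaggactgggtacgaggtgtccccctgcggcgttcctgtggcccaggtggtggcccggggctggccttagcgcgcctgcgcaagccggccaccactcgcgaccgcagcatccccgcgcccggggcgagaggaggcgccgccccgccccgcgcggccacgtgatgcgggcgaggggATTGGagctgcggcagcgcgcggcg

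Desaturase genes had a lower mean in retina throughout. Of 5 measured, 3 were called lower and none higher, leaving 2 without a call, and the median difference was -1.14. Of the named genes above the median brightness, 17.8% were called lower and 18.1% higher. Fads2 (probe 338186), the enzyme that starts the desaturation of polyunsaturated fatty acids, had 13.22, 13.17, 12.93, 13.26 and 12.97 in retina and 15.08, 15.05, 15.03, 14.79 and 14.90 in cortex (-1.86, SE 0.076, limma adjusted p = 1.49e-12), 3.63-fold lower in retina. Fads3 (probe 447118), its relative with a less settled role, had 11.76, 11.50, 11.73, 11.39 and 11.26 in retina and 12.86, 12.94, 12.73, 13.03 and 12.77 in cortex (-1.34, SE 0.11, adjusted p = 1.11e-08). Fads1 (probe 409046), the later desaturase of the same route, had 16.81, 16.65, 16.66, 16.75 and 16.82 in retina and 17.83, 17.88, 17.92, 17.81 and 17.96 in cortex (-1.14, SE 0.051, adjusted p = 4.92e-12). None of the 3 genes had a retina array that reached the cortex values. Scd2, the main stearoyl-CoA desaturase of brain, differed by -0.40 and by -1.03 without scaling. Scd1, the form of liver and fat, had 9.65, 10.08, 10.80, 9.82 and 9.67 in retina, mostly under the yardstick, and 10.95, 10.73, 11.32, 11.05 and 10.89 in cortex. Its tissues overlapped, and its difference of -0.98 crossed 2-fold when retina array 3, cortex array 2 or cortex array 5 was left out.

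**Figure D3:**
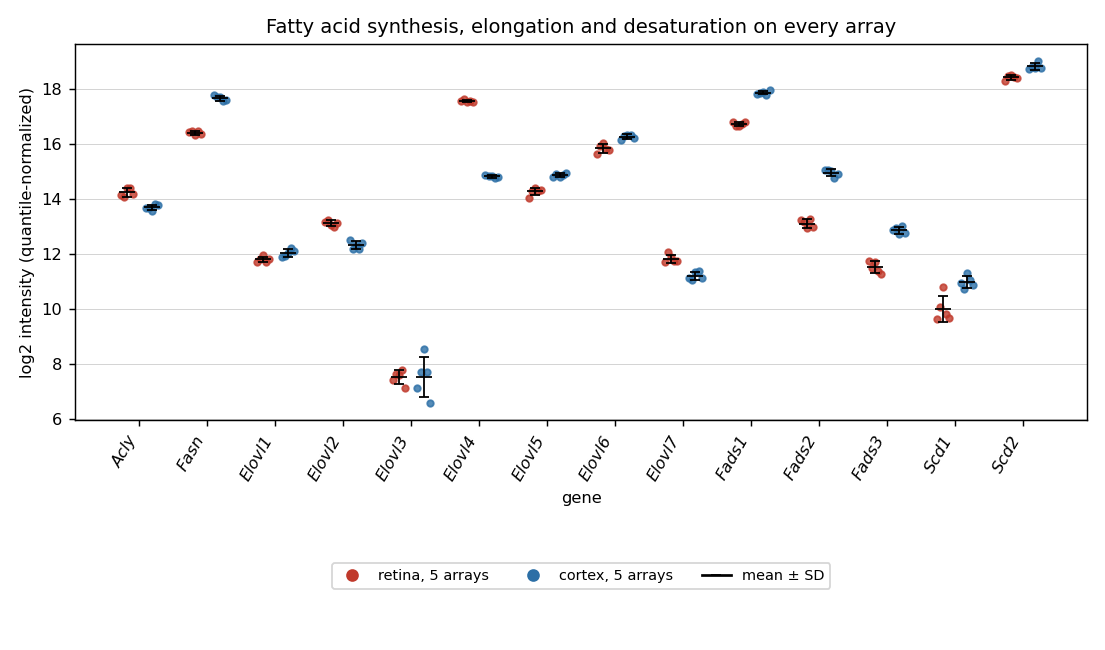
Quantile-normalized log2 intensity of the genes of fatty acid synthesis, elongation and desaturation on each of the 5 retina arrays (left of each pair) and 5 cortex arrays (right), with mean ± SD. Elovl4 is higher on all retina arrays, Fasn and Fads1 to Fads3 are lower on all of them, and Elovl3 and Scd1 overlap at low signal.

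All 4 measured acyl-CoA synthetase genes were called, 2 in each direction, beside 36% of the named genes above the median brightness. Acsl3 (probe 453584), an enzyme of the endoplasmic reticulum and lipid droplets, had 18.53, 18.46, 18.32, 18.55 and 18.54 in retina and 16.49, 16.60, 16.64, 16.60 and 16.50 in cortex (1.92, SE 0.055, limma adjusted p = 1.41e-14). Acsl6 (probe 552658), known for retaining docosahexaenoic acid in neural tissue, had 15.92, 15.72, 15.59, 15.57 and 15.62 in retina and 13.79, 13.77, 13.94, 13.66 and 13.82 in cortex (1.89, SE 0.068, adjusted p = 2.94e-13). Both were higher on every retina array, by 3.77-fold and 3.70-fold. Acsl4 (probe 480364), which prefers arachidonic acid, had 11.50, 11.33, 11.79, 11.54 and 11.52 in retina and 12.66, 12.70, 12.66, 12.80 and 12.90 in cortex (-1.21, SE 0.097, adjusted p = 1.14e-08). A dimmer probe of Acsl4 was under the yardstick in both tissues and was not called (-0.50, SE 0.33, limma adjusted p = 0.248), and with an offset before the log the brighter probe was at -0.98. Acsl5, a mitochondrial and endoplasmic reticulum form, averaged 14.84 ± 0.09 in retina, against 16.01 ± 0.08 in cortex (SD, n = 5 each; -1.18, SE 0.053).

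Genes of the carnitine shuttle and beta-oxidation were either called higher in retina or not called in the quantile-normalized fit. Of 6 measured, 3 were called higher and none lower, and the median difference was 1.02. Among the named genes above the median brightness, 18.1% were called higher and 17.8% lower. Cpt1a (probe 536038), the rate-limiting entry enzyme of the shuttle, had 11.85, 11.84, 11.79, 11.55 and 11.63 in retina and 8.36, 9.32, 8.38, 8.87 and 8.51 in cortex (3.05, SE 0.23, limma adjusted p = 4.37e-09). Its cortex values lay under the yardstick of dim signal, and the retina mean exceeded that yardstick by 0.99, so the full size of 8.26-fold rests on cortex signal not shown to be above background. With an offset before the log the difference was 1.63. Cpt2 (probe 496719), the inner membrane partner, had 15.36, 15.30, 15.21, 15.30 and 15.17 in retina and 12.94, 12.90, 12.85, 12.76 and 12.94 in cortex (2.39, SE 0.056, adjusted p = 9.74e-16), 5.24-fold higher in retina with neither tissue dim. Acadvl (probe 851776), the dehydrogenase of very long chains, had 17.07, 17.10, 17.23, 17.08 and 17.08 in retina and 15.49, 15.40, 15.54, 15.65 and 15.49 in cortex (1.60, SE 0.051, adjusted p = 6e-14). These values are well apart, whereas Acadl, the dehydrogenase of long chains, lay the other way on every array with a difference of -0.83, short of 2-fold. Without scaling of the arrays Acadl was called lower, at -1.22, and it passed the test against 1.5-fold. Hadha, a subunit of the trifunctional protein that follows, was at 0.45, and Cpt1c, the neuronal form that sits in the endoplasmic reticulum, overlapped between tissues (-0.15, interval -0.30 to -0.0044).

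**Figure D4:**
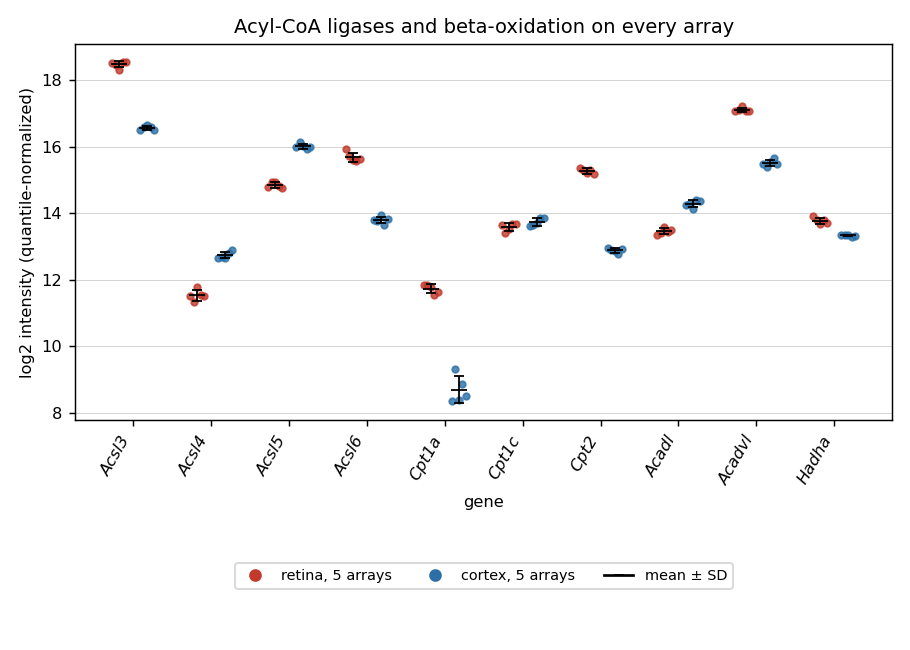
Quantile-normalized log2 intensity of the acyl-CoA synthetase genes and of the carnitine shuttle and beta-oxidation genes on each of the 5 retina arrays (left of each pair) and 5 cortex arrays (right), with mean ± SD. Acsl3, Acsl6, Cpt1a, Cpt2 and Acadvl are higher on all retina arrays, Acsl4, Acsl5 and Acadl are lower, and Cpt1c overlaps.

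Genes of the same pathways outside the 44 were read from the same fit. Of 63 listed, 46 were measured, and the calls were 14 higher and 3 lower in retina, with 29 genes left uncalled and a median difference of 0.08. The 17 called of 46 stand beside the 29% of all named genes and the 36% of brighter ones given above. Without scaling of the arrays 8 were called higher and 9 lower. Among 16 further genes listed as sterol genes, 7 were higher and 2 lower. The 7 include a ketoacyl-CoA reductase gene of fatty acid elongation, counted here as listed. Cyp27a1, a mitochondrial sterol hydroxylase, was higher by 3.69 (SE 0.21) with cortex under the yardstick, and by 2.39 with an offset before the log, while neither the sterol exporters Abcg1 (2.54, SE 0.069) and Abcg4 (1.58, SE 0.07) nor the lipoprotein receptor Scarb1 (2.25, SE 0.067) was dim. Ch25h, another cholesterol hydroxylase, was called lower (-1.56, SE 0.41) although its values overlapped and were dim in both tissues, and with an offset before the log it lost its call (-0.53). Among 30 further fatty acid genes, the calls were 7 higher and 1 lower. Ppara, the nuclear receptor that drives beta-oxidation genes, had 14.02, 14.00, 13.80, 13.89 and 13.89 in retina and 9.24, 10.14, 9.45, 9.27 and 8.52 in cortex. The cortex values are dim, so the difference of 4.60 (SE 0.21, limma adjusted p = 5.85e-12) is again uncertain in size, and it was 3.30 with an offset before the log. Thrsp, a lipogenic protein gene, Eci1, an enoyl-CoA isomerase of beta-oxidation, and Acss2, the cytosolic acetyl-CoA synthetase, were higher by 2.61, 1.99 and 1.66. Acsbg1, a synthetase of the bubblegum family, had 7.40, 8.23, 7.59, 8.58 and 10.96 in retina, where all but array 5 were far under the yardstick, and 13.92, 13.84, 13.91, 13.81 and 13.84 in cortex. It was called lower, but with retina dim the difference of -5.31 (SE 0.47) is uncertain in size. It was -5.91 without retina array 5 and -3.41 with an offset before the log.

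The spread of repeat arrays was small for most of the 44 genes. The SD over 5 arrays had a median of 0.119 log2 units in retina and 0.092 in cortex, beside 0.130 in retina and 0.099 in cortex over the named genes above the median brightness and 0.332 in retina and 0.281 in cortex over all probes. The widest were Scd1 in retina (0.48) and Npc1 in cortex (0.92), both under the yardstick there. The tightest were Tm7sf2 in retina (0.024) and Insig2 in cortex (0.019).

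**Figure D5:**
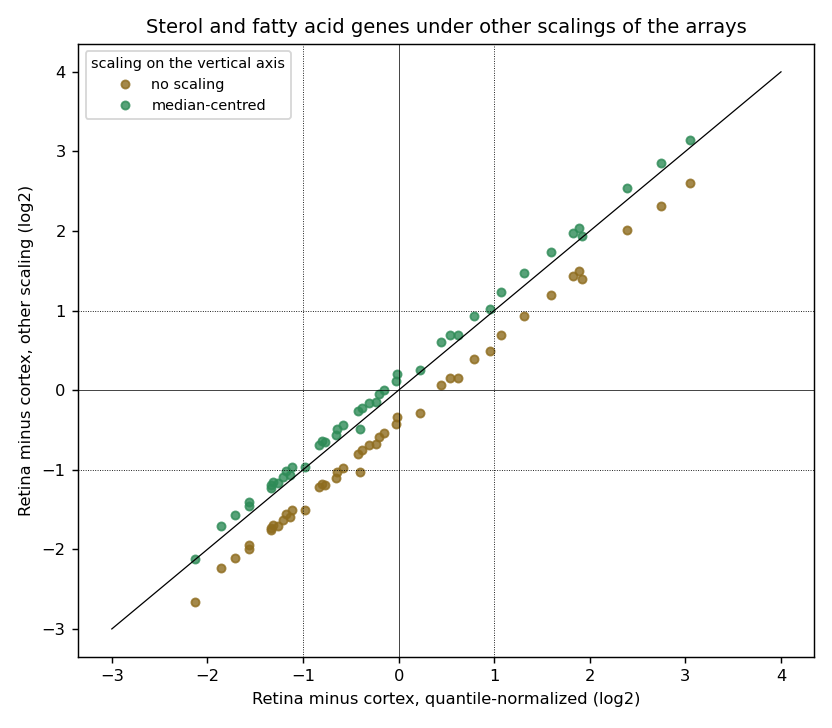
Retina minus cortex difference of the 44 genes with quantile normalization (horizontal axis) against the same difference without scaling or with arrays centred on their medians (vertical axis), both log2, with the line of equality and dotted lines at 2-fold. Points without scaling lie below the line, so that 7 genes were called higher and 20 lower, while centring gave 10 higher and 12 lower, against 9 higher and 13 lower with quantile normalization.

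How the arrays were scaled moved genes across the 2-fold line but turned no called gene round. Of the 22 called genes, 0 changed sign without scaling, with median centring or with an offset before the log, and of those not called 3 did (Pmvk, Npc1 and Elovl3). Relative to the median of all probes, the unscaled difference of Hmgcs1 was -2.25, that of Ebp 1.34 and that of Elovl4 2.73. Calls of 18 of the 22 genes held under every alternative tried, and Ebp, Insig2, Cyp46a1 and Acsl4 lost theirs under at least 1.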

How the data were processed

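Retina and cortex RNA, 1 pool each, were measured on 5 arrays each, grouped by the sample titles. Per the labels' protocols, digoxigenin-labelled cRNA was made from 1 µg of total RNA. The table deposited by the authors holds linear intensities for 33012 probes. How these were scanned, background-corrected and normalized, and which probes were detected, is not given in the sources used here. Values were put on the log2 scale, and since array medians spanned 0.682 (tolerance 0.1) they were quantile-normalized.

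The tissues were compared with limma 3.58.1 in R 4.3.3 (lmFit, eBayes with an intensity trend, 2-sided, Benjamini-Hochberg over all 33012 probes). A call needed adjusted p under 0.05 and 2-fold. The fit was tested on simulated data. The platform annotation gave 1 symbol to 14411 probes, several to 247 and none to 18354, and 14402 were matched by Entrez ID to RefSeq. The yardstick was the 95th percentile of the tissue means of 747 olfactory receptor probes. Promoter windows are RefSeq's on GRCm38.p6.

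The genes, roles and lists were chosen with earlier results of these data known, so their counts were given no test of their own. Values on every array are given for up to 3 called genes of a role with the largest difference and for called genes against the majority of their role. The other members are given by mean or difference, and of the genes outside the set the 5 called with the largest difference in each list are named. Alternatives were other scalings, an offset of 1000 before the log, leaving out dim probes, no trend, the replicate number as a block, a test against 1.5-fold, another choice of probe and leaving out each array.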

Additional observations from a re-analysis of the deposited data

Results flagged for a closer look

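Of 108 sets of 5 arrays checked (the 44 genes and the 10 other genes named from the same pathways, in each tissue), 4 had 1 array far from the other 4 by Dixon's criterion, which chance meets in about 1 set in 20. For Srebf1, retina array 4 read 16.53, below the 16.66 to 16.71 of the others. For Acadvl, retina array 3 read 17.23, above the 17.07 to 17.10 of the others. For Scd2, cortex array 4 read 19.03, above the 18.75 to 18.83 of the others, and for Scarb1, cortex array 3 read 13.24, above 12.97 to 12.99. Leaving out any single array changed no call of Srebf1, Acadvl or Scd2.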

How the results depend on the processing

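Without scaling between arrays, 20 of the 44 genes were called lower in retina and the median over the 44 was -0.78, the other pathway genes counted 8 higher and 9 lower, and all probes 2474 higher and 7621 lower, beside 3987 higher and 4392 lower with quantile normalization. With arrays centred on their medians the median over the 44 genes was -0.24. With an offset of 1000 before the log, 2441 probes were called higher and 2686 lower. Single genes lost or gained calls as follows: Ebp and Insig2 lost theirs without scaling, where Acadl, Dhcr7, Fdft1, Idi1, Npc2, Scd1 and Scd2 gained one, Cyp46a1 lost and Scap gained one with centring, Acsl4 and Insig2 lost theirs with the offset, and Acadl, Fdft1, Idi1 and Scap passed a test against 1.5-fold. Leaving out each array in turn gave 9 to 9 genes called higher and 13 to 14 lower, a median of -0.40 to -0.37, 14 to 15 other pathway genes higher and 3 to 3 lower, and 3932 to 4049 probes higher and 4341 to 4427 lower. Deviations of arrays that share a replicate number correlated at -0.020 to 0.029, so the number was not taken to pair them, and with the replicate number as a block the calls were again 9 higher and 13 lower. Dim signal without detection calls limits Npc1, Elovl3, Scd1 and the size of Cpt1a.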
